A study of Mus musculus with 2 samples.

Results

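The basophil-like barcodes are the droplets of bone marrow whose RNA was rich in Prss34 and Mcpt8, the serine proteases of mouse basophil granules. They were sought in both sequenced libraries among barcodes with at least 1000 unique molecular identifiers (UMIs, each standing for 1 captured RNA molecule) and under 10% of UMIs from mitochondrial (mt-) genes. A barcode was kept where Prss34 and Mcpt8 together made up at least 10 UMIs per 10,000 and were not outnumbered by the sum of the mast cell protease genes Cma1, Tpsb2 and Mcpt4. This gave 162 members among 13369 eligible barcodes, 79 of 6658 in the library called miR-142 WT CML and 83 of 6711 in the library called miR-142 KO CML. Members were thus chosen by their own counts of Prss34, Mcpt8 and the mast cell proteases, and every gene of these cells taken against the other barcodes is given below as a description.

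Both libraries were made from bone marrow of BCR-ABL+ mice aged 8 to 10 weeks on the B6 background, in which the SCL promoter drives a tetracycline-controlled transactivator and withdrawal of tetracycline switches on BCR-ABL, the fusion kinase of chronic myeloid leukemia (CML). The WT library carried intact Mir142 and is a model of chronic phase disease. The KO library lacked Mir142 and is a model of blast crisis. In both cases Lin-Sca-1+c-Kit+ cells (LSKs), a gate for stem and early progenitor cells, were sorted and about 8000 cells were captured for 3′ single-cell RNA sequencing. With 1 library per group and the number of mice behind each not given, nothing below could be tested between genotypes, and genotype and library cannot be told apart. Intervals are exact 95% intervals and cover counting error only.

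Basophils are short-lived granulocytes that arise in the marrow, carry the high-affinity IgE receptor and, once triggered, release histamine, leukotrienes and cytokines such as IL-4. Their precursors share a stage with mast cells, and GATA2 together with C/EBP alpha is known to steer the choice between these lineages. The microRNA miR-142 is made in nearly all blood cells, and its mature strands, shown here because their loss defines the KO library, are as follows, 5′ to 3′, with the seed that pairs with target RNA (bases 2 to 8) in capitals (RefSeq, GRCm38.p6).
mmu-miR-142a-3p: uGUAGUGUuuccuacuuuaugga
mmu-miR-142a-5p: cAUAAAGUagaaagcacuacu
The 3p strand lies at chr11:87756903-87756925 and the 5p strand at chr11:87756867-87756887, both on the plus strand and inside the host gene Mir142hg (chr11:87755577-87757270, GRCm38). Mir142hg was counted 9 times in 7 of the 72 WT members with at least 8000 UMIs and 0 times in the 75 such KO members, a direction that goes with the labels.

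Nearly all members were large. In WT, 72 members held at least 8000 UMIs ("large" members) and 7 held fewer ("small" members), and in KO these numbers were 75 and 8. The large WT members had a median of 21588 UMIs (8786 to 75273) and the large KO members 24506 UMIs (8317 to 93486), and these ranges overlapped widely. The median share of mt- UMIs was 1.90% and 1.72%, and that of ribosomal protein genes 24.5% and 30.8%. The mast cell-like barcodes, those rich in Cma1, Tpsb2 and Mcpt4, were of another size: 713 of the 852 in WT and 215 of the 408 in KO were small. Only 8 barcode strings occurred among the eligible barcodes of both libraries, and 0 of them belonged to a member in both.

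Members made up 1.19% of eligible barcodes in WT (0.940 to 1.48) and 1.24% in KO (0.986 to 1.53). The difference of KO minus WT was 0.0502 ± 0.382 percentage points, which is within counting error. Above 8000 UMIs the shares were 1.34% (1.05 to 1.69) of 5363 WT barcodes and 1.37% (1.08 to 1.72) of 5458 KO barcodes, a difference of 0.0316 ± 0.450 points. Below 8000 UMIs they were 0.541% (0.218 to 1.11) of 1295 and 0.638% (0.276 to 1.25) of 1253, a difference of 0.0979 ± 0.662 points. At this number of cells a difference in frequency between the genotypes was not detectable in either size class. The sort for LSKs sets which cells could be captured, so these are shares of the sorted cells and not of the marrow.

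**Figure D1:**
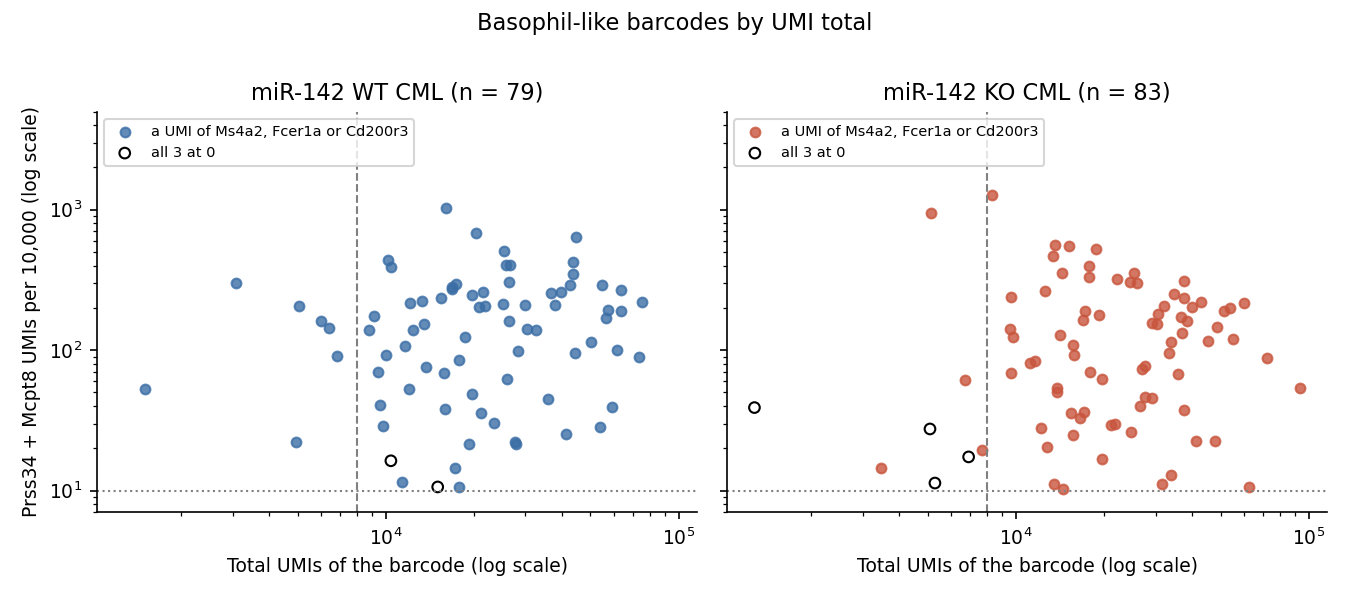
Each point is a basophil-like barcode, placed by its total UMIs (x axis, log scale) and by its Prss34 and Mcpt8 UMIs per 10,000 (y axis, log scale), with miR-142 WT CML on the left (n = 79) and miR-142 KO CML on the right (n = 83); the dashed line marks 8000 UMIs, the dotted line the 10 per 10,000 of the rule, and open circles barcodes without a UMI of Ms4a2, Fcer1a or Cd200r3. Most points lie right of 8000 UMIs and well above the rule's limit, and the open circles, 2 in WT and 4 in KO, lie between 10.6 and 39.0 per 10,000.

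The label was checked against genes the rule does not name, although these genes do not set basophils apart from mast cells. Ms4a2 (chr19:11615523-11623719) and Fcer1a (chr1:173221284-173227214) encode the beta and alpha chains of the IgE receptor, and Cd200r3 (chr16:44943678-44981380) an activating receptor of basophils and mast cells. All 3 were present by at least 1 UMI in 61 of the 72 large WT members and in 53 of the 75 large KO members. All 3 were at 0 in 2 and in 0 of them. Among small members all 3 were present in 6 of 7 WT barcodes, but in only 3 of 8 KO barcodes, and 4 of those 8 had none. At least 1 of the 3 was missing in 11 large WT and 22 large KO members, and the label rested on the proteases alone for 2 large WT and 4 small KO barcodes.

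The edge of the rule held less certain cells. The lowest WT members inside it stood at 10.6, 10.7 and 11.5 Prss34 and Mcpt8 UMIs per 10,000 and the nearest barcodes outside at 9.54, 9.31 and 8.70. In KO the values were 10.4, 10.7 and 11.1 inside and 9.52, 8.44 and 8.32 outside. Of the lowest 5 WT members, 3 had no Ms4a2 UMI and held 140, 187 and 94 UMIs of the neutrophil granule genes Elane and Mpo. The protease rate was reached but outnumbered by Cma1, Tpsb2 and Mcpt4 in a further 51 WT and 36 KO barcodes, which were left out.

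Prss34 (chr17:25298394-25300165, plus strand) averaged 10306 CPM (the gene's UMIs scaled to a fixed total after summing over members, so that 100 CPM equals 1 UMI per 10,000) in large WT members and 9329 in KO, against 43.6 and 92.6 in mast cell-like barcodes and 1.32 and 0.855 in the remaining barcodes. Single members ranged widely, from 0 through a median of 54.0 to 833 UMIs per 10,000 in WT and from 0 through 58.0 to 1057 in KO. Mcpt8 (chr14:56082166-56085273, minus strand), found in every large member, had medians of 85.2 and 45.8 per 10,000. Prss34 outnumbered Mcpt8 in 28 of 72 WT and 45 of 75 KO members. Prss34 was seen in 68 of 72 and in 71 of 75. Free RNA in droplets with at most 100 UMIs held 88.4 and 83.1 CPM of Prss34 and 113 and 96.99 CPM of Mcpt8, but the rule asks for these genes, so the higher level in members is not a finding.

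Beyond the genes of the rule, the 15 genes that stood out most from the other eligible barcodes in both libraries joined the basophil programme with a few less familiar names. Rnase12, a member of the ribonuclease A family, was 129-fold higher in WT members and 220-fold higher in KO members than in other barcodes. Ms4a2 was 43.4-fold and 22.8-fold higher, and Gata2, the lineage transcription factor, 11.1-fold and 8.85-fold. Csrp3, a LIM-domain protein known from muscle, was 43.1-fold and 79.2-fold higher. Alox5, which starts leukotriene synthesis, Cyp11a1, the first enzyme of steroid synthesis, the chemokines Ccl6, Ccl3 and Ccl4, and Perp, Hmgn3, Cd200r3 and Cd55 completed the list with Prss34 and Mcpt8. Ccl6 was the least even of these, at 505-fold in WT and 22.01-fold in KO.

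Members and mast cell-like barcodes both held transcripts of the IgE receptor and of Cpa3, at different levels. Fcer1a averaged 927 and 667 CPM in large WT and KO members and 2962 and 4180 in mast cell-like barcodes. Cpa3, the carboxypeptidase of mast cells and early basophils, averaged 3133 and 4130 CPM in members and 16387 and 21535 in mast cell-like barcodes. The mast cell tryptase gene Tpsab1 was at 1.99 and 0.970 CPM in members against 510 and 521, and Mitf, the mast cell transcription factor, at 4.96 and 1.94 against 70.1 and 44.0. Of the 14 genes on the list of mast cell markers, 12 were seen in large WT members and 9 in large KO members, with Mrgprb1 at 0 in both. Their summed level per member ran from 0 through a median of 3.44 to 145 per 10,000 in WT and from 0 through 1.998 to 108 in KO. The list includes Cma1, Tpsb2 and Mcpt4, which the rule reads, so a low sum in members is in part set by the rule.

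Of the surface proteins used in the sort, Kit had few transcripts in members. Kit was seen in 21 of 72 large WT and 34 of 75 large KO members, at 26.8 and 47.5 CPM, against 695 and 489 CPM in mast cell-like barcodes and 83.1 and 65.4 in the remaining barcodes. Ly6a, which encodes Sca-1, was seen in 26 of 72 and 30 of 75, at 131 and 359 CPM, against 406 and 904 in mast cell-like barcodes and 99.3 and 220 in the remaining barcodes, so its summed level in members was above that of the remaining barcodes. The WT sum leaned on a single member, which held 135 Ly6a UMIs, while 46 of the 72 large WT members held none. When every barcode was thinned to 8000 UMIs, a Kit UMI remained in 15.3% (7.88 to 25.7) of WT members against 50.04% of the remaining barcodes, and in 24.0% (14.9 to 35.3) of KO members against 40.2%. For Ly6a the shares were 25% against 49.4% in WT and 36.0% against 51.6% in KO. Transcripts need not follow surface protein, and which members passed the gate by which protein was not measured here.

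The comparison of large KO with large WT members asks which part of the basophil programme differed between the leukemias with and without miR-142. Most of the measured cytokine and chemokine genes, the histamine-forming enzyme gene Hdc and 5 of 9 paired and inhibitory receptors were at least 2-fold lower in KO members, while the IgE receptor beta chain gene Ms4a2 was level and 0 listed cell cycle genes passed 2-fold. Ccl6, a CC chemokine, had the lowest ratio among the cytokine genes, with 6468 CPM in WT members against 315 CPM in KO members. Of 2917 genes with at least 50 CPM on either side and at least 20 UMIs in all, KO exceeded WT by 2-fold or more in 68 (2.33%) and fell short of it by as much in 184 (6.31%), and the median log2 ratio over all of them was 0.03. With 1 library each, these are counts past a fold and not tests. Ribosomal protein genes had a median log2 ratio of 0.27, and 0 of 82 reached 2-fold.

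**Figure D2:**
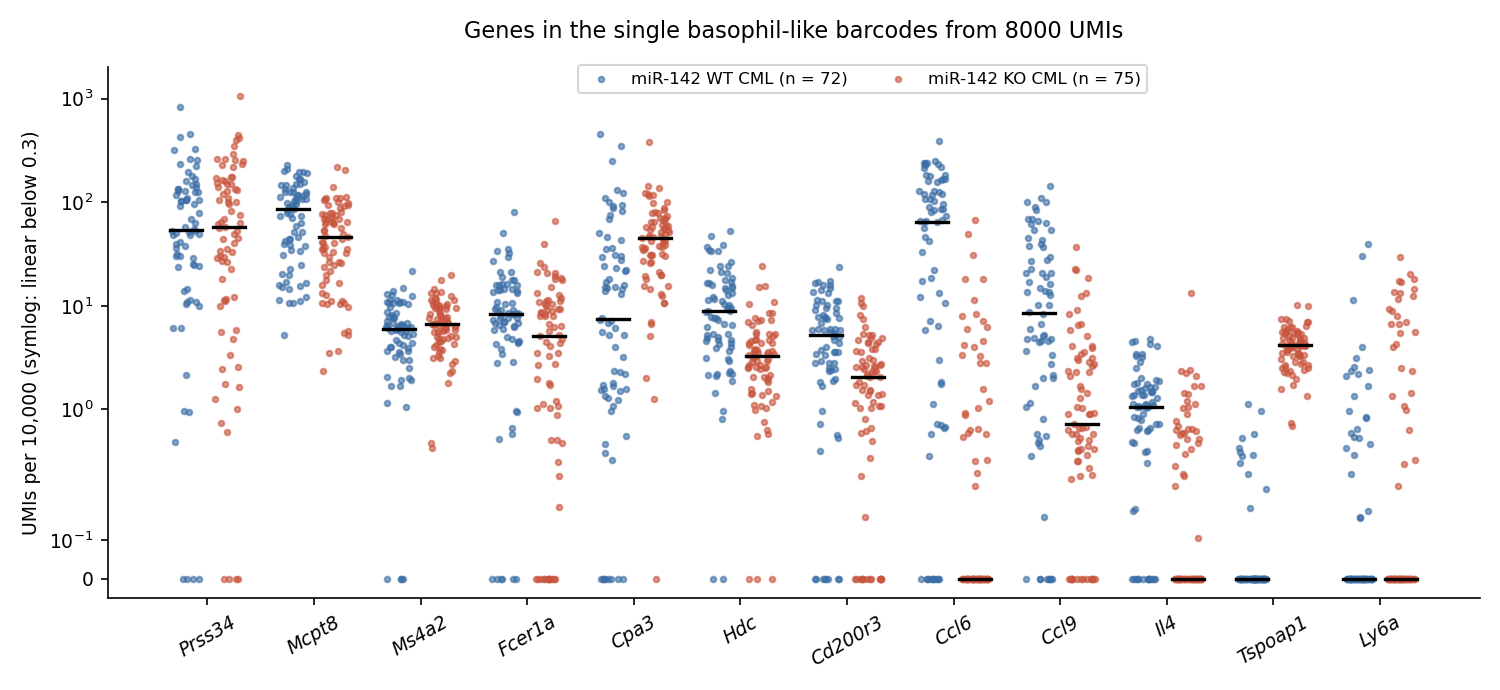
Single basophil-like barcodes with at least 8000 UMIs are plotted for 12 genes, miR-142 WT CML (blue, n = 72) beside miR-142 KO CML (red, n = 75), as UMIs per 10,000 on a symmetric log axis that is linear below 0.3, with a black bar at the median. The Ms4a2 bars are nearly level, the Ccl6 bar lies at 64.9 in WT and 0 in KO, and the Tspoap1 bar at 0 in WT and 4.17 in KO.

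Most secreted factors were lower in KO. Of 16 listed cytokine and chemokine genes 10 were measured well enough, and 9 of these were at least 2-fold lower in KO, 0 higher, with a median log2 ratio of −1.78. Ccl6 ran from 0 through a median of 64.9 to 387 UMIs per 10,000 in WT members and from 0 through 0 to 67.1 in KO members. It was seen in 61 of 72 and in 32 of 75, so the groups overlapped although the highest KO member lay close to the WT median. The log2 ratio was −4.36 (−4.47 to −4.25). Ccl9, a related chemokine, ran from 0 through 8.55 to 142.5 per 10,000 in WT and from 0 through 0.726 to 36.9 in KO, a log2 ratio of −2.66 (−2.79 to −2.52). Here 64 and 60 members held at least 1 UMI of the transcript, and how many members were rich in it was not counted. Free RNA held 76.3 CPM of Ccl6 in the WT library and 11.5 CPM in KO, and its part in the difference was not tested.

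The same list held the signature cytokine of the cell type. Il4 was seen in 58 of 72 WT and 34 of 75 KO members, at 111 and 37.3 CPM, a log2 ratio of −1.57 (−1.97 to −1.19), though the highest single value, 13.3 per 10,000, was in a KO member. Thinned to 8000 UMIs, Il4 was held by 52.8% of WT and 26.7% of KO members. In the remaining barcodes these shares were 3.45% and 0.963%, so the lower share in KO was not particular to members. Ccl3 and Ccl4, chemoattractants of activated myeloid cells, had log2 ratios of −2.28 and −1.83, Il6 −1.47, the cytokine Osm −1.73 and the growth factor Hgf −1.70. Il1b, at −2.51, rested on few cells, 21 in WT and 3 in KO, and was −1.78 without its richest barcode. Tgfb1, at −0.46, was the listed factor that did not reach 2-fold.

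Enzymes of mediator synthesis were lower in part. Of 7 measured, 3 were at least 2-fold lower in KO and 1 higher. Hdc, which makes histamine, ran from 0 through 8.82 to 53.3 per 10,000 in WT and from 0 through 3.26 to 24.1 in KO, with nearly every member positive (70 of 72 and 72 of 75) and a log2 ratio of −1.44 (−1.56 to −1.32). Cyp11a1 was at −1.29 and Alox5 at −1.17, whereas Alox5ap, which presents the substrate to the Alox5 enzyme, and Lta4h, a later enzyme of leukotriene synthesis, stayed within 2-fold at −0.49 and −0.38. Slc18a2, the transporter that loads histamine into granules, was at −0.09. Tph1, which makes serotonin, was the gene on the other side, at 3.37, and was seen in 16 KO and 9 WT members. In KO, 164 of its UMIs lay in 14 of the 25 members that held Gata3, a set described below, and 37 in 2 of the 50 without Gata3.

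Paired receptors were lower in part, and the chains of the IgE receptor differed from each other. Of 9 measured paired and inhibitory receptors 5 were at least 2-fold lower in KO and 0 higher (median −1.09). Cd200r3 had medians of 5.18 and 2.07 per 10,000 and highest values of 23.6 and 12.02, with a log2 ratio of −1.11 (−1.27 to −0.94). Lilrb4a, an inhibitory immunoglobulin-like receptor, was at 844 CPM in WT and 147 in KO (−2.52), Lilr4b at −2.38, and Tyrobp, the signalling adaptor of the activating members, at 1625 and 573 CPM (−1.50). The Fc receptors for IgG, Fcgr2b and Fcgr3, were at 0.38 and 0.42. In the IgE list 3 of 11 were lower, Fcer1g (−1.03), the adaptor Lcp2 (−1.48) and the kinase Pik3cd (−1.34). Ms4a2 was at 629 CPM in WT and 628 in KO with medians of 6.04 and 6.66 per 10,000, a log2 ratio of −0.00 (−0.12 to 0.11), and Fcer1a was at −0.47.

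Of 8 measured cytokine receptor genes 3 were at least 2-fold lower in KO and 0 higher, with a median of −0.79. Csf2rb and Csf2rb2, the signalling chains of the receptors for IL-3 and related cytokines, had log2 ratios of −1.30 and −1.43, and Il2rg −1.01, while the IL-3 receptor alpha chain Il3ra was at −0.37 and the IL-33 receptor Il1rl1 at −0.80. Cish, a feedback inhibitor switched on by STAT5, was at 132 CPM in WT and 34.9 in KO (−1.91). The survival factor Mcl1 was at −0.16. Ifngr1, the interferon gamma receptor, was at 0.97, just under 2-fold.

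Granule contents were mostly within 2-fold. Of 14 measured proteases and cargo genes 2 were at least 2-fold lower, the membrane fusion protein Snap23 (−1.74) and the protease Ctsd (−1.08), and 0 were higher. Prss34 was at −0.14 and Mcpt8 at −0.82, although the rule reads both. Cpa3 differed between sums and medians, since its sums gave 0.40 while its median was 7.47 per 10,000 in WT and 45.2 in KO. It was seen in 64 of 72 WT and 74 of 75 KO members, and a few WT members with up to 452 per 10,000 raised the WT sum. Ctsg, a protease of immature granulocytes, was at 0.98 with medians of 12.6 and 45.6.

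Transcription factors and adhesion genes split in direction. Among 16 measured transcription factors, Bhlhe40 (−2.37) and Nfil3 (−1.87) were at least 2-fold lower in KO, and Lmo4 (1.18) and the immediate early gene Fos (1.26) higher. Gata2 was at −0.66, Cebpa at −0.10 and Runx1 at −0.58. Among 11 adhesion and homing genes, Itga2, the integrin alpha chain recognised by the basophil antibody DX5, was at 58.1 CPM in 41 of 72 WT members and at 7.76 CPM in 9 of 75 KO members (−2.90, −3.76 to −2.14). Itgb2, Cd9 and Itgb7 were at −1.86, −1.32 and −1.02, while Itga4 (1.44) and the marrow retention receptor Cxcr4 (1.07) were higher in KO. Cd34, a progenitor antigen, was at 1.27 and was seen in 61 KO and 29 WT members.

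Of the 18 basophil markers on the list, all measured, 10 were at least 2-fold lower in KO and 0 higher, with a median of −1.18. Several of these genes also stand on the lists above, and the list names Prss34 and Mcpt8. Cell cycle genes did not separate the groups at 2-fold, with 0 of 19 S phase genes and 0 of 31 G2M phase genes past it and medians of 0.09 and −0.34. Per member the G2M sum had a median of 60.2 per 10,000 in WT and 50.5 in KO, and both groups ran from under 5 to over 200, so cycling and resting members were present in each.

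Outside the lists, the genes furthest down in KO included Akr1c18, a steroid-converting reductase known from basophils, at 1609 CPM in 40 WT members and 49.0 CPM in 8 KO members (−5.04), and Slpi, a secreted protease inhibitor, at 5929 and 252 CPM (−4.56). Muc20 (−5.04), Hrc (−4.88), Ifitm6 (−4.79) and Asb2 (−4.50) were each seen in at least 36 WT members and at most 7 KO members. Ifi27l2a, Isg15, Pf4 and Ccn3 also ranked there, but a single WT barcode held 57.0%, 62.6%, 97.6% and 85.1% of their UMIs. Furthest up, Prg2 and Prg3, proteins of eosinophil granules, came mainly from a single KO barcode, with 92.9% and 67.6% of the UMIs, and were at 0 in WT. Tmem176a was seen in all 75 KO and 28 WT members (2.42), and Klf9 in 53 and 18 (2.39).

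**Figure D3:**
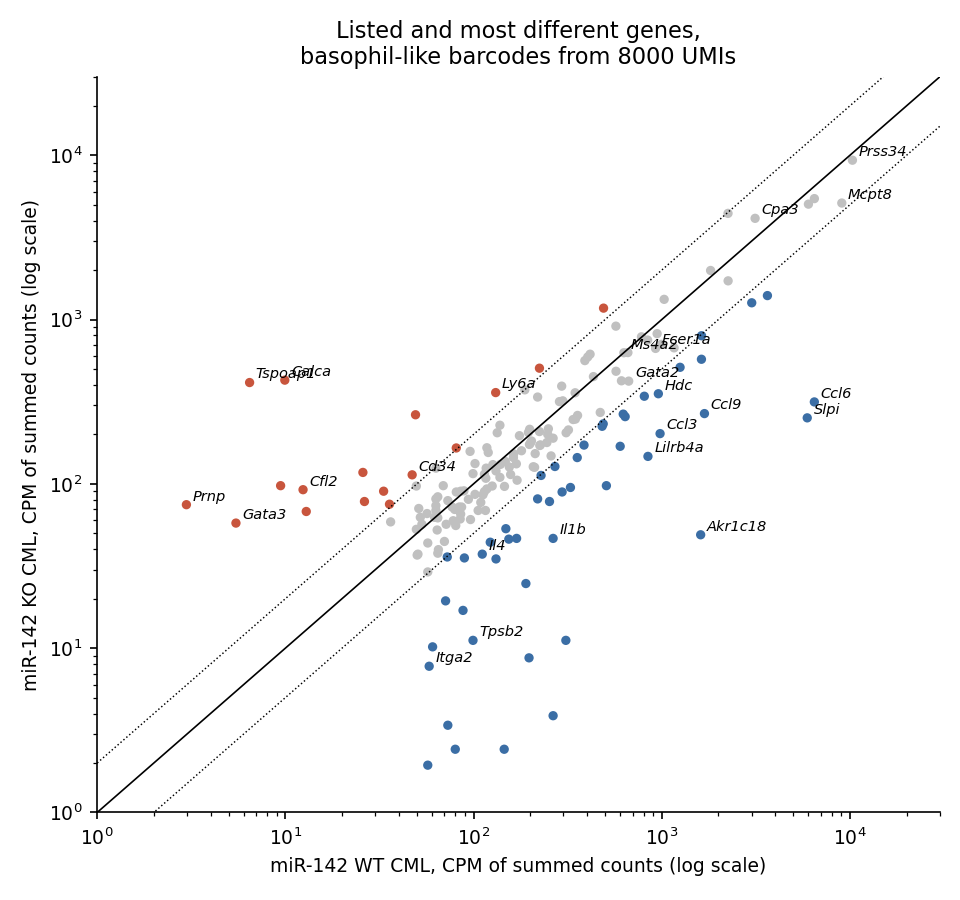
Each point is a listed gene or a gene with an extreme ratio, placed by its CPM summed over the large WT members (x axis, log scale) and over the large KO members (y axis, log scale), with the solid line at equality and dotted lines at 2-fold; red genes are higher in KO by 2-fold or more and blue genes lower. Ccl6, Slpi and Akr1c18 lie far below the lines and Tspoap1, Calca and Prnp far above, while Ms4a2 lies near equality.

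Tspoap1 had the highest ratio among genes not set by a single barcode. It ran from 0 through 0 to 1.14 UMIs per 10,000 in WT members, 12 of which held it, and from 0.700 through 4.17 to 10.3 in KO members, all 75 of which did, for a log2 ratio of 6.0 (5.22 to 6.92). The gene lies just downstream of Mir142hg on the same strand (chr11:87760541-87785928, GRCm38). The remaining barcodes held 3.84 CPM in WT and 345 CPM in KO, so the difference was not particular to members. Supt4a, on the same list of the miR-142 locus, was at 0.00.

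Within WT, the large members themselves fell into a broad range of Ccl6. A limit of 10 Ccl6 UMIs per 10,000 was set after the values were seen, and it divides a range rather than naming a cell type: 48 of 72 WT members lay above it (66.7%, 54.6 to 77.3) and 6 of 75 KO members (8.00%, 2.99 to 16.6). In each group 8 members lay between 5 and 20 per 10,000. With limits of 5, 20 and 50 the WT counts were 51, 43 and 39 and the KO counts 11, 3 and 1. Depth was alike, with medians of 22584 UMIs in WT members above the limit and 20794 below.

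Genes of mature basophil function went with Ccl6 among WT members, and granulocyte progenitor genes went against it. Of 3042 genes, 259 (8.51%) were at least 2-fold higher in the Ccl6-high WT members than in the 24 Ccl6-low ones and 146 (4.80%) at least 2-fold lower. Of 11 measured cytokine and chemokine genes 10 were higher, Ccl6 itself included, and 0 lower. Of 18 basophil markers 11 were higher, again with Ccl6, which set the split, included, and 1 lower. Ccl9 was at 2524 against 160 CPM, Hdc at 1262 against 407 CPM, Cd200r3 at 635 against 203 CPM and Il4 at 151 against 37.8 CPM. Akr1c18 was at 2486 against 14 CPM, a log2 ratio of 7.47 (6.59 to 8.53). The IgE receptor beta chain was not part of this, since Ms4a2 was at 582 against 714 CPM, with medians of 6.002 and 6.64 per 10,000.

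On the other side, Mpo, the peroxidase of neutrophil precursors, was at 280 CPM in Ccl6-high and 1354 CPM in Ccl6-low WT members and was seen in 25 of 48 and 22 of 24. Elane was at 77.7 against 386 CPM, but this rested on the 3 WT members at the edge of the rule that have no Ms4a2, since without them, a choice made after seeing the data, the Ccl6-low level was 68.5 CPM. Without them Mpo was at 1156 CPM in Ccl6-low WT members. Apoe was at 36.9 against 405, Clec12a at 23.1 against 136 and the progenitor antigen Cd34 at 26.9 against 84.0. Cpa3 was at 2062 against 5083 CPM, the latter 3080 without its richest member. The G2M sum had a median of 14.3 per 10,000 in the Ccl6-high WT members and 101.9 in the Ccl6-low ones, while 5 of 36 G2M genes were at least 2-fold lower in the summed counts and 0 higher. After thinning to 8000 UMIs, the Spearman correlation of Ccl6 over the 72 WT members was 0.71 with Hdc, 0.65 with Ccl9, 0.55 with Cd200r3, 0.52 with Il4, −0.70 with Mpo and 0.03 with Ms4a2. These points share a library, so they describe that library. Over the 75 KO members the values were 0.49, 0.22, 0.42, 0.18, −0.29 and −0.20.

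**Figure D4:**
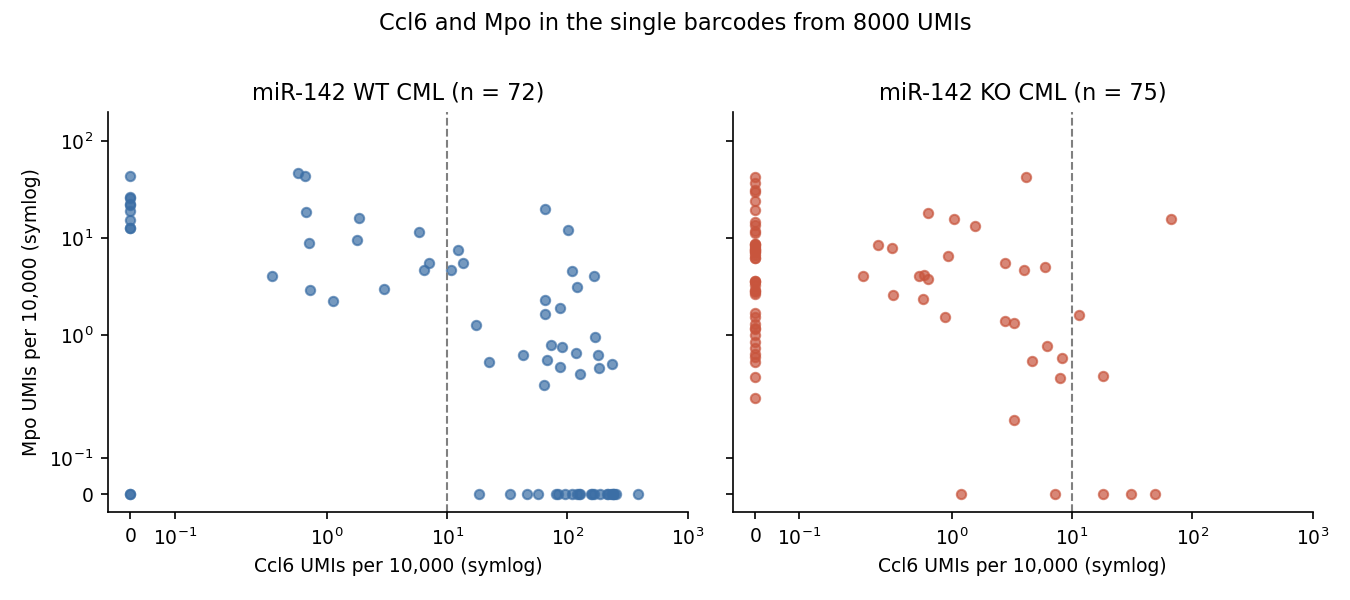
Each point is a basophil-like barcode with at least 8000 UMIs, placed by Ccl6 (x axis) and Mpo (y axis) in UMIs per 10,000 on symmetric log axes, miR-142 WT CML on the left (n = 72) and miR-142 KO CML on the right (n = 75), with a dashed line at 10 Ccl6 UMIs per 10,000. In WT 48 points lie right of the line, many of them without Mpo, and in KO 6 points do, with 43 points at 0 Ccl6.

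The few Ccl6-high KO members held more of several of these genes than the other KO members, in part through 1 barcode. In these 6 barcodes Hdc was at 1002 CPM against 302 CPM in the other 69 KO members, Cd200r3 at 725 against 184, Il4 at 198 against 24.6 and Mpo at 198 against 664. A single barcode held 21 of the 30 Il4 UMIs and 25 of the 30 Mpo UMIs of the 6, and without it the levels were 66.2 CPM of Il4 and 36.8 CPM of Mpo. Of 3244 genes 411 (12.7%) were at least 2-fold higher and 209 (6.44%) lower. Of 17 basophil markers 10 were higher, with Ccl6, which set the split, included, and 0 lower. Unlike in WT, the G2M sum was not lower, with medians of 66.7 and 47.9 per 10,000. Against the 48 Ccl6-high WT members, these 6 were higher by 2-fold or more in 279 of 3179 genes (8.78%) and lower in 165 (5.19%), with 1 of 18 basophil markers higher and 2 lower.

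Among Ccl6-low members alone, few genes of the basophil lists were 2-fold apart between the genotypes. The 69 KO and 24 WT barcodes are subsets of the groups above and so are not separate evidence. Of 2910 genes KO exceeded WT by 2-fold or more in 44 (1.51%) and fell short of it in 46 (1.58%). Of 16 basophil markers 1 was lower and 0 higher, with a median log2 ratio of −0.38, of 8 cytokine and chemokine genes 1 was lower, and of 9 paired receptors and 7 IgE receptor genes 0 passed 2-fold in either direction. Ccl9 was at 0.36 (0.05 to 0.67), Hdc at −0.43 (−0.64 to −0.22), Cd200r3 at −0.14 (−0.42 to 0.15) and Il4 at −0.62 (−1.33 to 0.12). Ccl4 was the cytokine past 2-fold, at −1.42. The marker was Mcpt8, which the rule reads, at −1.07 (−1.11 to −1.02). Mpo was at −1.03, or −0.80 without the 3 WT edge members that have no Ms4a2. Elane was at 2.53 without them, with 396 CPM in KO against 68.5 CPM in WT, and nearly level with them (396 and 386 CPM). The KO level leaned on few barcodes as well, since a single barcode held 286 of the 757 Elane UMIs. Without that barcode Elane was at 259 CPM in KO. The proliferation gene Mki67 was at −1.03. Of 35 G2M phase genes 4 were lower in KO and 0 higher, with a median of −0.74. Of 22 S phase genes 0 passed 2-fold in either direction, with a median of −0.24. Tspoap1 (6.63), Prnp (5.70), Calca (4.76), Cfl2 (3.47), Il7r (3.05) and Gata3 (2.80) were among the 10 highest. The interval of Prnp, 3.20 to 11.0, rests on a single WT UMI.

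A set of lymphoid genes that ranked high in KO came from a minority of members. Gata3, a transcription factor of T cells and innate lymphoid cells (ILCs), was seen in 25 of 75 large KO members (33.3%, 22.9 to 45.2) and in 4 of 72 WT members (5.56%, 1.53 to 13.6). Thinned to 8000 UMIs, the shares were 20% and 2.78%, with 5.84% and 6.35% in the remaining barcodes of KO and WT. The division by Gata3 was made after the values were seen. Among KO members with Gata3, 24 of 25 also held Il7r, 22 Calca, 22 Prnp, 19 Icos, 16 Rora and 14 Tph1. Among the 50 without it these counts were 2, 4, 3, 0, 4 and 2. In WT, Il7r was not bound to Gata3, since 25 of 72 members held it and 23 of these had no Gata3 UMI. Its level was 20.7 CPM in the 68 WT members without Gata3 and 256 CPM in the 25 KO members with Gata3. Il7r encodes the IL-7 receptor, Icos a costimulatory receptor, Rora an ILC transcription factor and Calca the neuropeptide CGRP.

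These KO barcodes held basophil transcripts as well. All 25 had a UMI of Ms4a2, as had all 50 others, with medians of 5.45 and 7.57 per 10,000. Prss34 was at 9208 CPM with Gata3 and 9429 CPM without, Mcpt8 at 4758 and 5413, and Cpa3 at 2720 and 5290. Ly6a, by contrast, was at 785 and 8.84 CPM, and at least 5 Ly6a UMIs were found in 24 of 25 and in 0 of 50. The higher level of Ly6a in KO members as a whole rested on these barcodes, since its log2 ratio of KO over WT was 1.46 (1.25 to 1.66) with them and −3.89 when members with Gata3 were left out. The value of −3.89 leaned on few WT barcodes. Of the 241 Ly6a UMIs in large WT members without Gata3, a single barcode held 135 and another held 48. The KO barcodes with Gata3 were also larger, with a median of 32115 UMIs against 19407, and 6 of 25 against 3 of 50 were among the barcodes that a doublet caller scored highest. The part of mixed droplets in this set was not tested.

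**Figure D5:**
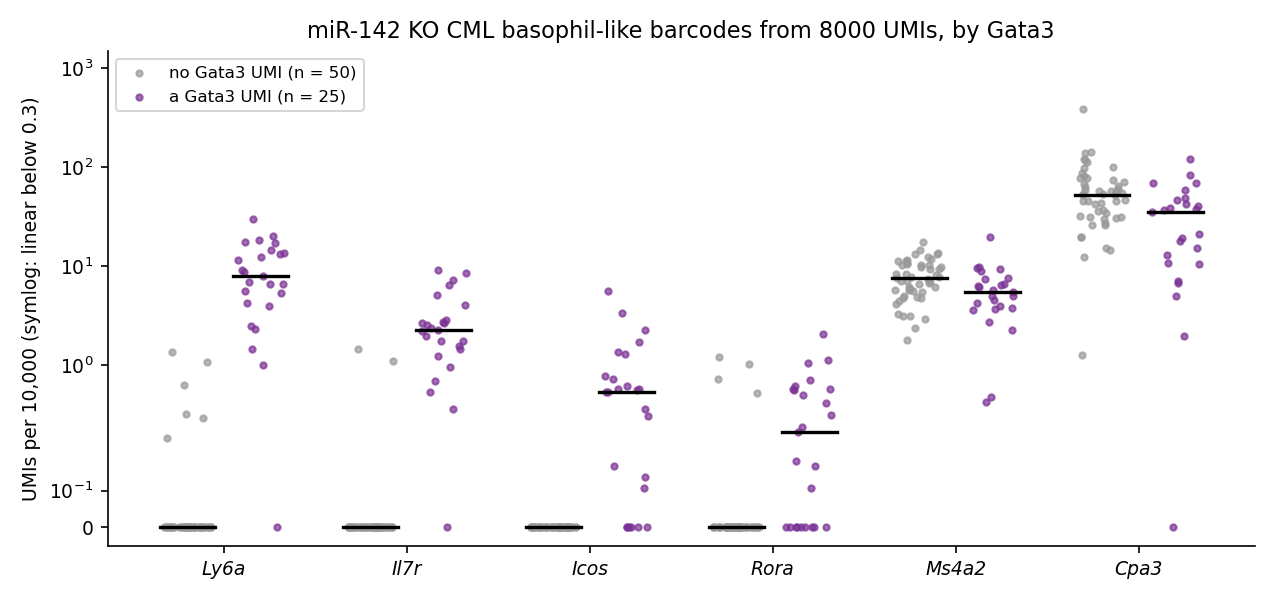
Single large KO basophil-like barcodes are plotted as UMIs per 10,000 on a symmetric log axis that is linear below 0.3 for 6 genes, those without a Gata3 UMI in grey (n = 50) and those with 1 or more in purple (n = 25), with a black bar at the median. Ly6a, Il7r, Icos and Rora are mostly at 0 in the grey barcodes and present in most purple ones, while Ms4a2 and Cpa3 are present in nearly all barcodes of both sets.

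Markers of other cells were uneven between the large groups. The 9 eosinophil markers summed to 9.93 CPM in WT, with 2 genes seen, and to 838 CPM in KO, with 7 seen. In KO members their sum ran from 0 through a median of 0 to 1190 per 10,000, and 2 of 75 KO members held at least 10 Prg2 UMIs per 10,000. The 14 neutrophil granule genes summed to a median of 18.1 per 10,000 (0 to 225) in WT members and 58.7 (2.80 to 156) in KO members, and free RNA held 5935 and 14036 CPM of the same list. The 10 T, NK and ILC markers summed to medians of 2.94 (0 to 15.4) and 5.10 (0.726 to 20.5). The part of these transcripts in the genotype ratios was not tested.

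Genes with sites for miR-142 were examined because the KO members lack it. A site was counted where a gene's 3′ UTR in GENCODE (GRCm38) holds ACACTAC, the complement of the 3p seed, which is the case for 1262 of 20869 genes (6.05%). Among large members 163 measured genes hold a site. Of these, 7 (4.29%) were higher in KO by 2-fold or more and 8 (4.91%) lower, against 66 (2.30%) and 182 (6.35%) of all 2866 measured genes with a 3′ UTR. The median log2 ratio was 0.13 for genes with a site and 0.03 for all. Among Ccl6-low members, 7 of 162 (4.32%) were higher and 1 (0.617%) lower, against 42 (1.47%) and 44 (1.54%) of 2858, with medians of 0.07 and −0.07. The same count was made for ACTTTAT, the complement of the 5p seed. Of 383 measured genes with it, 6 (1.57%) were higher in KO by 2-fold or more and 27 (7.05%) lower among large members, with a median of −0.02, and among Ccl6-low members 5 of 384 (1.30%) were higher and 6 (1.56%) lower, with a median of −0.10. A match of letters is a description and not proof of binding.

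Cfl2, which encodes an actin-severing cofilin, and Gna11, a G protein alpha subunit, hold more than 1 site, and their sites are shown with the capitals marking the letters that pair with the seed.
Cfl2 site a: ttcccgatgagtgtACACTACtgtataa
Cfl2 site b: atatgagtcttgaaACACTACagatatt
Gna11 site a: ggcagccaggtgacACACTACagggtct
Gna11 site b: cctgctgctcatatACACTACagtgtct
Gna11 site c: ctgtgccatcccatACACTACagagcta
The Cfl2 sites lie at chr12:54860457-54860484 and chr12:54860417-54860444, and the Gna11 sites at chr10:81530228-81530255, chr10:81529808-81529835 and chr10:81529470-81529497, all on the minus strand. Cfl2 was at 12.4 CPM in 21 large WT members and 92.1 CPM in 64 large KO members, a log2 ratio of 2.89 (2.29 to 3.56), and at 30.7 and 96.6 CPM in the remaining barcodes. Gna11 was at 16.4 and 85.8 CPM (2.39). Tsen34, a tRNA splicing endonuclease subunit with 1 site, was at 25.3 and 125 CPM (2.30), Edem3 at 20.8 and 97.9 (2.23), Akt1s1 at 18.9 and 66.4 (1.82) and Bod1 at 15.9 and 51.4 (1.69). Itga4, which also holds 2 sites, was at 33.3 and 90.2 CPM (1.44). Snap23, Tpm4 and Enah, which hold a site as well, went the other way at −1.74, −1.74 and −1.88. So did Ubac2 (−1.69), P2ry1 (−1.63), Hacd4 (−1.26), Id1 (−1.05) and Fkbp1a (−1.01), each with a site. Ccl6-low members gave 3.47 for Cfl2 and 2.09 for Gna11.

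Promoters of 2 basophil genes are printed because Gata2, whose protein binds GATA motifs, was among the leading genes of members. The capitals mark a GATA motif on either strand, that is AGATAA, its variant AGATAG, the form TGATAA with another first letter, or the variant of that form, TGATAG. The window runs from 250 bases before to 50 after the start of transcription (RefSeq, GRCm38.p6).
Prss34 promoter, chr17:25298144-25298443, plus strand: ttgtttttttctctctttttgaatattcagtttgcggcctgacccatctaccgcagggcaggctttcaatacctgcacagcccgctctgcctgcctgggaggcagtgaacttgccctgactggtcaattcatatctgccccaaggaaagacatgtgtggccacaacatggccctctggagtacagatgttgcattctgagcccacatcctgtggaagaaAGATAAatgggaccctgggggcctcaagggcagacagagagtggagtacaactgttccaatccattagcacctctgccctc
Ms4a2 promoter, chr19:11623670-11623969, minus strand: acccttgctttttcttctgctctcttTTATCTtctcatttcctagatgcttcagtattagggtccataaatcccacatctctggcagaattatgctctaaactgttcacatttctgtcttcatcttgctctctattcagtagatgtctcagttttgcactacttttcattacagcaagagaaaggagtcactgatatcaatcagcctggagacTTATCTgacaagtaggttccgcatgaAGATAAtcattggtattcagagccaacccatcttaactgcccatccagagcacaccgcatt
Prss34 holds 1 match and Ms4a2 3. The promoter of Cd200r3 holds 3 matches, those of Fcer1a, Cpa3 and Hdc 1 each, and those of Mcpt8, Ccl6, Ccl9, Ccl3 and Akr1c18 0. Of 32851 promoters of the same length 29.8% hold at least 1 match, 7.77% at least 2 and 1.76% at least 3, so a single match is common.

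The small members were few and held 33833 UMIs in WT and 41516 in KO. Small WT members were rich in Ccl6, which was present in all 7 at 17 to 150 UMIs each, or 12355 CPM together, with Hdc at 1833 CPM and Il4 at 443 CPM. Mast cell protease genes made up at least 10 per 10,000 in 5 of the 7. Against large WT members, 602 of 3406 genes (17.7%) were at least 2-fold higher and 467 (13.7%) lower, and scaled by median-of-ratios size factors 461 were higher and 625 lower, so the direction over all genes depends on the scaling. Of 33 G2M genes 12 were lower and 2 higher, and of 5 neutrophil granule genes 4 were lower.

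The small KO members were mixed. KO member 4, with 5128 UMIs, held 447 of the 480 Prss34 UMIs of all 8, at 950 Prss34 and Mcpt8 UMIs per 10,000, along with 11 Ms4a2 UMIs. KO members 5 and 7 had no Ms4a2, Fcer1a or Cd200r3 but held 31 and 56 Ly6a UMIs with transcripts of Il7r and Gata3. KO member 6 had 8.19% mt- UMIs and 138 Cpa3 UMIs. Ccl6 was counted 2 times, in 1 barcode. Against large KO members, 613 of 3240 genes (18.9%) were at least 2-fold higher and 409 (12.6%) lower. The counts were 997 and 417 when totals left out mt- genes and genes over 1% of counts, and 57 and 78 at 200 CPM. The direction over all genes thus depends on the filter. Of 29 G2M genes 13 were lower and 0 higher. KO over WT among small members had 522 measurable genes, 87 (16.7%) higher and 124 (23.8%) lower. Ccl6 was at −8.00, Cma1, which the rule reads, at −7.27 and Slpi at −7.05, and Prnp at 4.75 and Ly6a at 3.06. The direction of Ccl6 and Slpi was that of the large members.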

How the data were processed

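The authors aligned the reads with Cell Ranger (version 6.1.2 in the labels, Cell Ranger 4 in the file header) to mm10 and deposited, for each of the 2 libraries, an unfiltered matrix of raw UMI counts per gene and barcode. It held 1957898 barcodes with 170881210 UMIs (WT) and 2055088 with 187721815 (KO). Barcodes under 1000 UMIs were dropped, and 416 and 135 of the rest for at least 10% mt- UMIs, 4 and 0 of which met the protease rule. Counts of members were summed, scaled to their total and compared by ratio, with at least 50 CPM on either side and 20 UMIs in all; a side at 0 was set to 3 counts. The ratios and intervals were tested on simulated Poisson counts, which leave out variation between barcodes. Intervals are exact (binomial, Poisson or conditional binomial). Scrublet in Scanpy 1.11.5 called 1 barcode per library (0.015%), which did not work, so no barcode was removed as a doublet; the highest 5.33% and 5.37% by score included 3 WT and 10 KO members. The members and gene lists were chosen with earlier results of these data known. Genes named are list members, the 10 most extreme in each direction of a comparison, the 15 leading genes and Mir142hg; genes with miR-142 sites, Gata3 companions and the Ccl6 range were added after values were seen. Python 3.11.15, NumPy 2.4.6, SciPy 1.17.1, pandas 2.3.3 and Matplotlib 3.10.9 were used.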

Additional observations from a re-analysis of the deposited data

Results flagged for a closer look

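For 3 genes the small members stood on opposite sides of the large members in the 2 libraries, past 2-fold in each, and the difference between the libraries was not tested. Cma1, a mast cell protease gene that the rule reads, had a log2 ratio of small over large members of 3.91 in WT and −3.06 in KO, where a single UMI was counted in small members. Il2rg, the shared cytokine receptor gamma chain, was at −1.29 in WT (−6.61 to 1.21, from 1 UMI) and 1.75 in KO (0.08 to 3.03, from 5 UMIs). Stx3, a syntaxin of granule fusion, was at −1.70 in WT, also from 1 UMI, and 1.48 in KO (0.13 to 2.56, from 7 UMIs).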

How the results depend on the processing

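All shares of members kept within counting error of the main difference under every alternative run. The counts of genes at least 2-fold apart depended on the filter on low values and on the rule. KO against WT among large members gave 252 genes, 1052 with no filter beyond 20 UMIs (515 higher, 537 lower) and 76 at 200 CPM (15 and 61). Among small members the count went from 211 to 92 with members at 100 per 10,000 and to 36 with the size limit at 4000 UMIs. Small against large members gave 1069 genes in WT and 197 at 200 CPM (79 higher, 118 lower). In KO this comparison gave 1022 genes, 1654 with no filter beyond 20 UMIs and 135 at 200 CPM (57 higher, 78 lower). The filters and rules change how many genes or barcodes enter; no other cause was tested. Of the listed single-gene values 251 moved by more than their counting interval and 2299 did not. Reversed were Ly6a in KO over WT large members, at −3.89 without members with a Gata3 UMI, and Syce2 in small over large KO members, from −2.64 to 0.44 with members at 100 per 10,000. The reversed Ly6a value leaned on few WT barcodes, as given above. The difference in the share of Ccl6-high members, −58.7 percentage points at 10 per 10,000, was −56.2, −55.7 and −52.8 at 5, 20 and 50, limits chosen after seeing the data, as were the Gata3, Prg2, Ms4a2 with Fcer1a and edge-member alternatives. No paired analysis was possible because each group has 1 library, and for the same reason no replicate could be left out.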
